A study of Mus musculus with 10 samples.

Results

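Neurexins, neuroligins and 7 further gene families encode cell surface proteins with which axons and dendrites, or axons and glia, recognise each other. They were taken by symbol alone, as every gene named Nrxn, Nlgn, Lrrtm, Lrfn, Slitrk, Flrt, Cadm, Cntn or Cntnap followed by a number that a probe set of its own measured. This gave 39 of the 19752 genes measured, with 2 neurexins, 3 neuroligins, 4 Lrrtm, 5 Lrfn, 6 Slitrk, 3 Flrt, 3 Cadm, 6 contactin and 7 contactin-associated genes. Cadm2, which had no probe set of its own, was not analysed here. Total RNA was taken from both dentate gyri of C56BL/6J mice (the strain name as labelled), aged 4, 6, 8, 10 and 12 weeks, with 2 whole-transcript arrays per age and no treatment. The animals carry no transgene or mutation in the labels, which do not say how many animals each array stands for. Values are deposited levels per probe set on a scale taken as log2, so a difference of 1 is a doubling.

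Before the results, 3 facts of the arrays bear on them. The labels give the sex as female. Xist, which coats the inactive X, ranged only from 5.41 to 6.02, under the dim reference of 7.01 defined below. The Y-linked genes Uty (9.10 to 9.34), Kdm5d (8.89 to 9.20) and Eif2s3y (8.59 to 9.16) were above it. Every array thus carried male RNA, against the label. The array of 6 weeks replicate 1 stood apart by its choroid plexus transcript Ttr, at 13.77 against 8.87 to 10.15 elsewhere, and that of 8 weeks replicate 1 by the lowest mean correlation with the others, 0.9952. Prox1 and Calb1, which mark dentate granule cells, were at 12.15 to 12.38 and 12.44 to 12.73, so the labelled tissue carried its markers on every array. In bulk tissue, fewer cells of a type and less RNA per cell cannot be told apart.

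Neurexins sit on the presynaptic side and bind neuroligins and Lrrtm proteins on the postsynaptic side. Slitrk and some Lrfn proteins bind presynaptic receptor phosphatases, and Flrt proteins bind latrophilins and Unc5 receptors. Cadm proteins, also called SynCAMs, bind each other across the cleft, while contactins are anchored to the outer membrane by a lipid and pair with contactin-associated proteins, above all where myelin meets the axon. Granule cells of the dentate gyrus are still being born and wired at these ages, which makes the levels of these molecules over the series of interest.

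The fitted changes of these genes from 4 to 12 weeks were small, and none passed the tests. By the linear trend over age in limma, 0 of the 39 genes passed an adjusted p of 0.05, against 0.82% of all genes. The moderated F-test for a difference between any ages also called 0, against 0.167% of all genes, and the comparison of 12 with 4 weeks called 0, against 0.516%. With shares this small, a count of 0 in 39 does not set the families apart. The background itself turns on single arrays: the trend called 162 genes in all, and between 35 (without 4 weeks replicate 1) and 279 (without 8 weeks replicate 1) when 1 array was left out. Before adjustment, 5 of the 39 genes (12.8%) had a trend at p under 0.05 in limma, 1 higher (Cntn3) and 4 lower (Cadm4, Cntn2, Cntn6 and Lrrtm3), against 11.7% of all genes. In the F-test 2 did (5.13%), against 8.46%, and between 12 and 4 weeks 3 did (7.69%), against 9.57%. These shares are near the background, and the named genes are described here for the size of their changes, not as calls.

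The fitted change over the 8 weeks ranged from −0.37 to 0.27, with a median of −0.01, against a median of 0.00 over all genes. In 26 of the 39 genes the whole 95% interval of the change lay within 0.25 log2 units of 0, that is, within a 1.19-fold change either way. This held for 42.2% of all genes and for 51.1% of those that were not dim. Within 0.5 log2 units, a 1.41-fold change, lay the intervals of 38 genes, and the exception was Cntn6. Both bounds were chosen after the values were seen. Dim means a level under 7.01, the mean over arrays of the 95th percentile of 1207 olfactory, vomeronasal and trace amine receptor genes, few of which are thought to be expressed in brain.

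**Figure D1:**
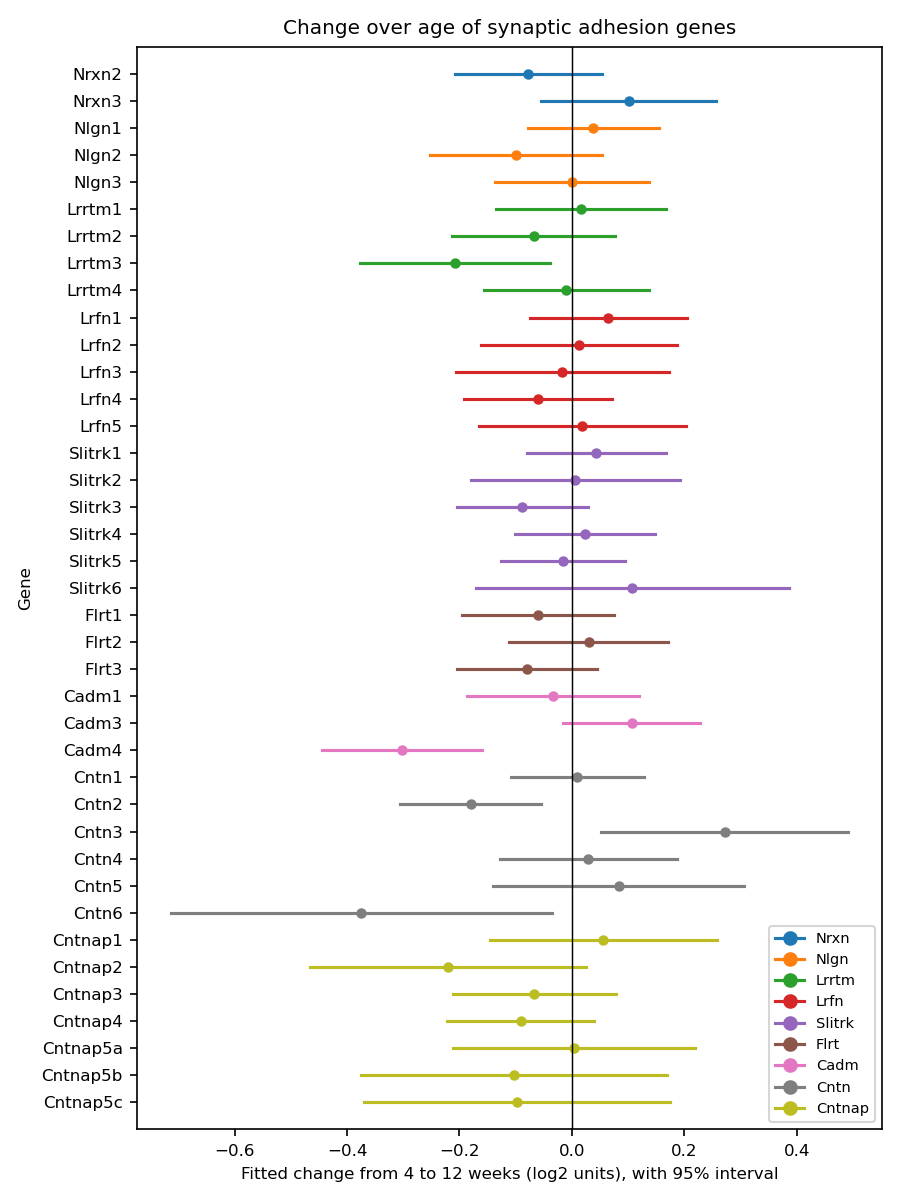
Fitted change from 4 to 12 weeks of each of the 39 genes in log2 units (points) with its 95% interval (bars), coloured by family. The intervals of Cadm4, Cntn2, Cntn6 and Lrrtm3 lie below 0 and that of Cntn3 above it, before any adjustment for the number of genes tested; all others cross 0.

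Family means at 12 weeks lay within 0.08 log2 units of those at 4 weeks. Relative to its 4-week mean, the neurexin pair stood at 0.02 at 12 weeks, the neuroligins at −0.01, the Lrrtm genes at −0.04, the Lrfn genes at 0.00, the Slitrk genes at 0.01 and the Flrt genes at −0.02. The contactins stood at −0.02, the Cadm genes at −0.07 and the contactin-associated genes at −0.08. For the Cadm genes both arrays of 10 and both of 12 weeks, at −0.05 to −0.08, lay below all 6 arrays of the younger ages. That mean joins members of opposite sign, with Cadm4 lower and Cadm3 higher at 12 than at 4 weeks. The largest departure of any family on any array was −0.22, for the contactin-associated genes on the array of 8 weeks replicate 1; the other array of that age was at −0.02.

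**Figure D2:**
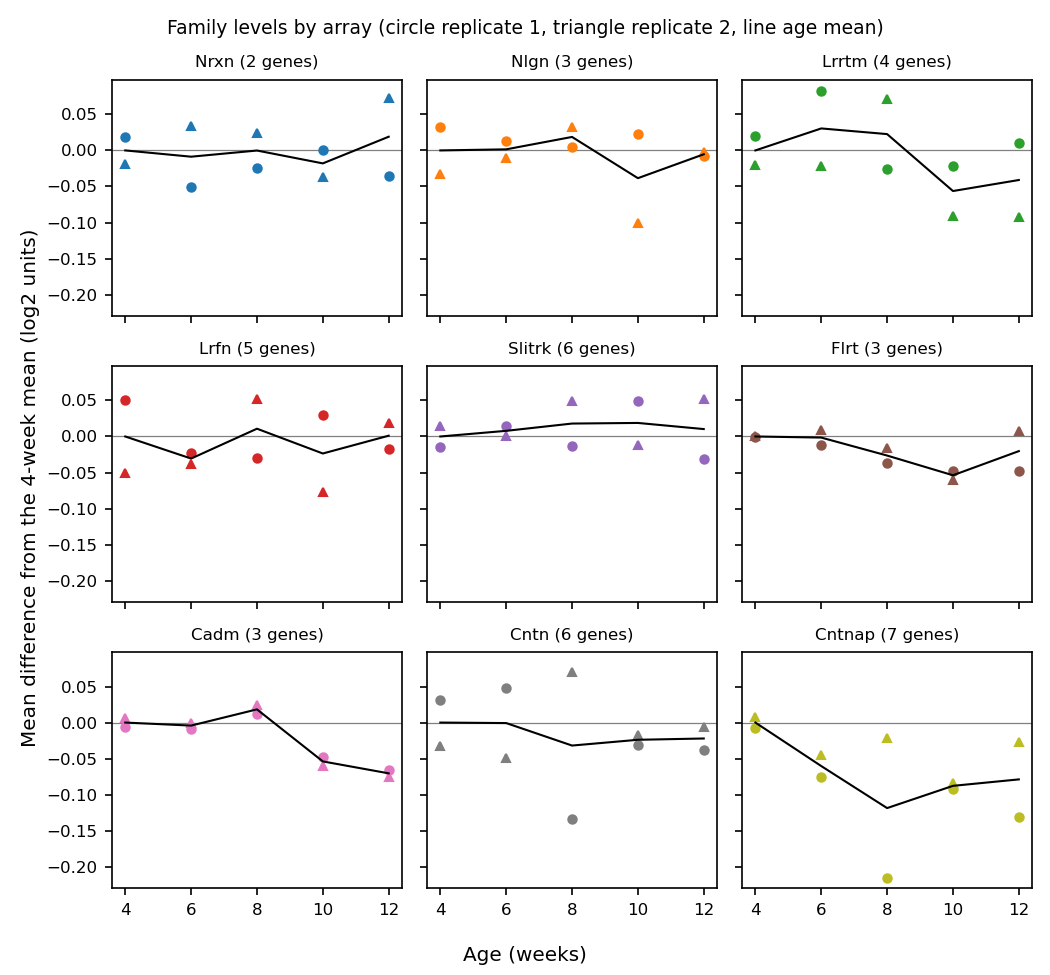
Mean difference of each family's genes from their 4-week mean, in log2 units, against age in weeks. Circles and triangles are the arrays of replicate 1 and 2, and the line joins the age means. The contactin and contactin-associated genes have the lowest array values, −0.13 and −0.22, both on 8 weeks replicate 1, and the widest gap between replicates is at 8 weeks in these same families.

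Among presynaptic neurexins, Nrxn2 had a fitted change of −0.08 ± 0.06 (SE) and Nrxn3 one of 0.10 ± 0.07. Nrxn3 lay between 11.26 and 11.53 and its 4-week and 12-week arrays overlapped. Nrxn2 lay between 11.47 and 11.63. Neurexin genes make many isoforms through a pair of promoters and alternative splicing, and 1 value per probe set does not tell them apart. The postsynaptic neuroligins had intervals that all crossed 0. Nlgn1, found mainly at excitatory synapses, had a change of 0.04 ± 0.05, Nlgn3, found at both kinds, one of 0.00 ± 0.06, and Nlgn2, the isoform of inhibitory synapses, one of −0.10 ± 0.07. For Nlgn3 the 95% interval ran from −0.14 to 0.14, and for Nlgn1 from −0.08 to 0.15.

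The Lrrtm genes encode postsynaptic leucine-rich repeat proteins of excitatory synapses. Lrrtm1 (0.02 ± 0.07) and Lrrtm2 (−0.07 ± 0.07), which bind neurexins, and Lrrtm4 (−0.01 ± 0.07), which binds heparan sulphate proteoglycans and is known from granule cell dendrites, had intervals that crossed 0. The interval of Lrrtm3 did not. Its level was 11.10 and 11.10 at 4 weeks, 11.23 and 11.04 at 6, 11.03 and 11.13 at 8, 10.99 and 10.98 at 10, and 11.02 and 10.81 at 12 weeks. Both 10-week and both 12-week arrays were thus below all 6 arrays of the younger ages. The fitted change was −0.21 ± 0.08 (SE), a 1.16-fold lower level, with an unadjusted p of 0.020 and an adjusted p of 0.29 in limma; without the array of 12 weeks replicate 2 the change was −0.13.

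Lrfn proteins, also known as SALMs, are postsynaptic adhesion molecules, several of which bind the scaffold PSD-95. Their fitted changes were 0.06 ± 0.06 for Lrfn1, 0.01 ± 0.08 for Lrfn2, −0.02 ± 0.09 for Lrfn3, −0.06 ± 0.06 for Lrfn4 and 0.02 ± 0.08 for Lrfn5. All 5 intervals lay within 0.25 log2 units of 0. The Slitrk genes, whose products bind receptor phosphatases and promote synapse formation, had the lowest median SD between arrays of an age among the families, 0.05 log2 units, against 0.07 for all 39 genes and 0.09 for all genes. Slitrk3, which acts at inhibitory synapses, had the most negative change of the family, −0.09 ± 0.05, and lay between 12.02 and 12.19. Slitrk1 (0.04 ± 0.06), Slitrk2 (0.01 ± 0.09), Slitrk4 (0.02 ± 0.06) and Slitrk5 (−0.02 ± 0.05) also had intervals within 0.25. Slitrk6 was the exception in level. Its mean was 4.75, it lay under the dim reference on all 10 arrays, and its fitted change was 0.11 ± 0.13.

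The Flrt genes encode leucine-rich repeat proteins that guide axons and organise synapses. Flrt1 had a change of −0.06 ± 0.06, Flrt2 of 0.03 ± 0.07 and Flrt3, known from granule cells as a latrophilin partner, of −0.08 ± 0.06. Flrt3 was at 10.44 and 10.42 at 4 weeks and at 10.40 and 10.35 at 12 weeks, which do not overlap. Across all 39 genes, both 12-week arrays were below both 4-week arrays in 9, against 22.2% of all genes, and above them in 6, against 21.6%. These shares are near the background and single out no gene.

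Cadm4 came closest to the threshold. Its product is an immunoglobulin-type adhesion protein known from myelinating glia, where it binds the axonal protein Cadm3. The Cadm4 level was 9.90 and 10.02 at 4 weeks, 9.87 and 9.87 at 6, 9.78 and 9.82 at 8, 9.69 and 9.83 at 10, and 9.56 and 9.71 at 12 weeks. The age means were lower at each of the 4 steps, and the arrays of 4 and 12 weeks did not overlap. A fall at all 4 steps was seen in 2 of the 39 genes (5.13%), Cadm4 and Cntn6, against 2.23% of all genes and 2.86% of those that were not dim. The fitted change was −0.30 ± 0.07 (SE, 95% interval −0.44 to −0.16), a 1.23-fold lower level, with an unadjusted p of 0.00059 and an adjusted p of 0.055 in limma. Between the ends of the series the difference was −0.32 ± 0.08 (adjusted p = 0.18).

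The adjusted p of Cadm4 moved to either side of the threshold with the fit. It was 0.048 without the array of 8 weeks replicate 1, and 0.033 with the replicate number as a block; over all 22 alternatives it ran from 0.018 to 0.31, while the change stayed between −0.33 and −0.25. Markers of other cells also passed as lower. Of 9 genes of myelinating oligodendrocytes 7 passed as lower by the trend, against 133 of all 19752 genes. The list mean went from 10.65 at 4 weeks to 10.07 at 12 weeks. Mbp (−0.27 ± 0.06, adjusted p = 0.055 in limma) and Mobp (−0.48 ± 0.12, adjusted p = 0.089) did not pass. Another list joined 7 genes of oligodendrocyte precursors, of newly formed oligodendrocytes and of the lineage as a whole. Of these 5 passed as lower (Gpr17, Olig1, Olig2, Bmp4 and Enpp6), and the list mean went from 9.36 to 8.77. The precursor markers Pdgfra (−0.16 ± 0.08, adjusted p = 0.50 in limma) and Cspg4 (−0.14 ± 0.07, adjusted p = 0.46) did not pass. The list is therefore not read as a fall of precursor transcripts. Of 12 genes of neuroblasts and immature neurons 7 passed as lower (10.32 to 9.49). Sox11, Neurod1, Tubb3, Stmn1 and Calb2 did not pass, with changes from −0.55 (Sox11) to −0.14 (Stmn1). The part of these lists in the level of Cadm4 was not tested. Of the other family members, Cadm3 had a change of 0.11 ± 0.06, with 11.45 and 11.51 at 4 weeks against 11.62 and 11.60 at 12 weeks, and Cadm1 of −0.03 ± 0.07.

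**Figure D3:**
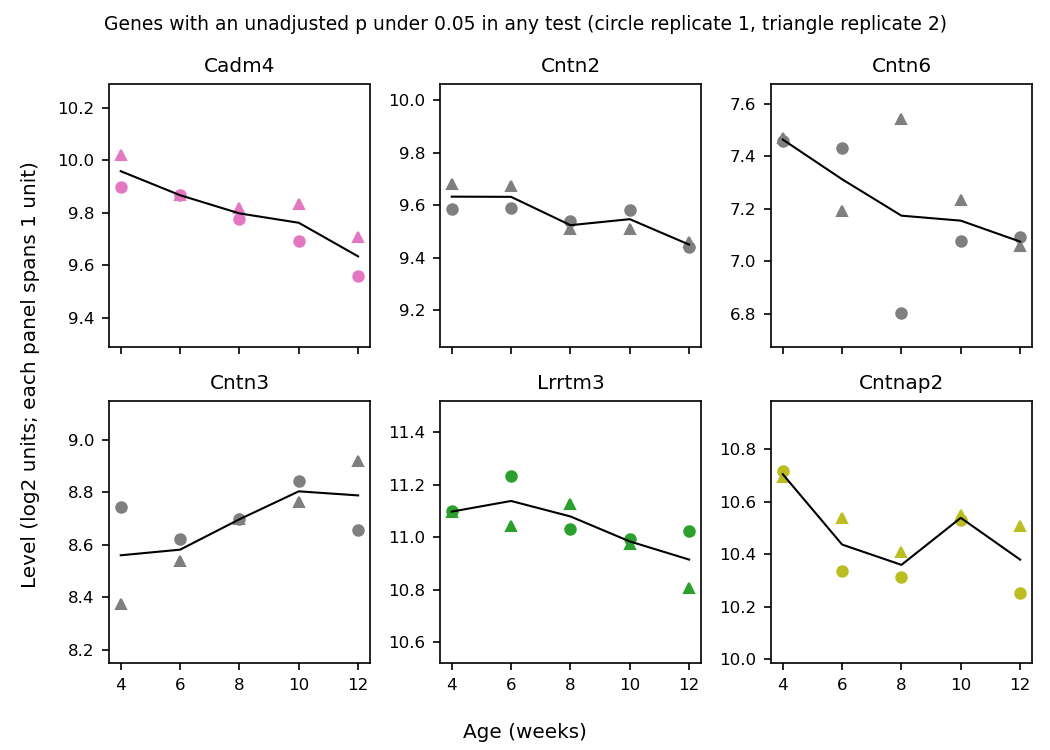
Level in log2 units against age in weeks for the 6 genes with an unadjusted p under 0.05 in any of the 3 tests. Circles and triangles are the arrays of replicate 1 and 2, lines join the age means, and every panel spans 1 log2 unit. Cadm4 steps down from 9.96 to 9.63, and the arrays of Cntn6 at 8 weeks lie at 6.80 and 7.54.

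The contactins held both ends of the range of changes, −0.37 and 0.27. Cntn1, the axonal partner of Cntnap1 beside the node of Ranvier, had a change of 0.01 ± 0.05 and lay between 12.46 and 12.60. Cntn2, also called TAG-1, is made by growing axons and by oligodendrocytes, and pairs with Cntnap2 next to the paranode. Its level was 9.58 and 9.68 at 4 weeks, 9.59 and 9.67 at 6, 9.54 and 9.51 at 8, 9.58 and 9.51 at 10, and 9.44 and 9.46 at 12 weeks. The 2 arrays of 12 weeks were the lowest of the 10. Its change was −0.18 ± 0.06 (SE), with an unadjusted p of 0.0086 and an adjusted p of 0.21 in limma. The lists of oligodendrocyte and immature neuron genes given for Cadm4 moved beside this gene too, and their part was not tested.

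Cntn3 and Cntn6, neuronal contactins, had the largest changes in opposite directions. Cntn3 was at 8.75 and 8.38 at 4 weeks, 8.62 and 8.54 at 6, 8.70 and 8.70 at 8, 8.85 and 8.76 at 10, and 8.66 and 8.92 at 12 weeks. The ends of the series overlapped, since the 4-week arrays spanned those of 6, 8 and, at 12 weeks, replicate 1. The fit gave 0.27 ± 0.10 (SE, adjusted p = 0.29 in limma), and 0.17 without the array of 4 weeks replicate 2. Cntn6 was at 7.46 and 7.47 at 4 weeks, 7.43 and 7.19 at 6, 6.80 and 7.54 at 8, 7.08 and 7.23 at 10, and 7.09 and 7.06 at 12 weeks. It passed the dim reference of the same array on 9 of the 10 arrays and not on that of 8 weeks replicate 1. Its change was −0.37 ± 0.16 (SE, adjusted p = 0.36 in limma). Cntn4 (0.03 ± 0.07) and Cntn5 (0.08 ± 0.10) had intervals that crossed 0.

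Contactin-associated genes encode neurexin-like proteins of axons. Cntnap1, of the paranode, had a change of 0.06 ± 0.09 and lay between 11.26 and 11.56. Cntnap2 clusters potassium channels beside it, and its gene was the only one besides Cadm4 with an unadjusted p under 0.05 in the F-test (0.036, adjusted p = 0.56 in limma). It was at 10.72 and 10.69 at 4 weeks, 10.34 and 10.54 at 6, 10.31 and 10.41 at 8, 10.53 and 10.55 at 10, and 10.25 and 10.51 at 12 weeks. The 4-week arrays were the highest of the 10, and the later ages followed no order. The difference between 12 and 4 weeks was −0.33 ± 0.10 (adjusted p = 0.28) and the linear change −0.22 ± 0.11 (adjusted p = 0.49).

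The mean of 4 markers of CA1 pyramidal cells, the neighbouring hippocampal field, also varied between arrays without order in age. It lay between 10.14 and 10.21 at 4 weeks, 10.03 and 10.26 at 6, 9.94 and 10.00 at 8, 10.21 and 10.36 at 10, and 9.87 and 10.06 at 12 weeks. The array of 12 weeks replicate 1 was the lowest for the CA1 mean and for Cntnap2. The CA1 mean was highest on 10 weeks replicate 1, where Cntnap2 was at 10.53. Cntnap2 was highest on 4 weeks replicate 1, where the CA1 mean was 10.21. None of the 4 markers passed the trend, the F-test or the comparison of 12 with 4 weeks. In the F-test 2 of the 4 (50%) had an unadjusted p under 0.05, against 8.46% of all genes. These were Wfs1 (0.011, adjusted p = 0.45 in limma) and Mpped1 (0.021, adjusted p = 0.51). Between 12 and 4 weeks Wfs1 differed by −0.39 ± 0.11 (adjusted p = 0.24). The part of these markers in the level of Cntnap2 was not tested.

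The remaining contactin-associated genes had changes of −0.07 ± 0.07 (Cntnap3), −0.09 ± 0.06 (Cntnap4), 0.00 ± 0.10 (Cntnap5a), −0.10 ± 0.12 (Cntnap5b) and −0.10 ± 0.12 (Cntnap5c). Cntnap5a and Cntnap5b were lowest on the array of 8 weeks replicate 1, at 9.76 and 8.91, against 10.13 and 9.36 on its replicate. Of the 39 genes 3 had several probe sets. The 6 of Cntnap3 had changes between −0.12 and 0.08, with 4 of them dim. The 2 of Cntnap5c had −0.10 and 0.01, and those of Slitrk2 had 0.01 and −0.09.

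**Figure D4:**
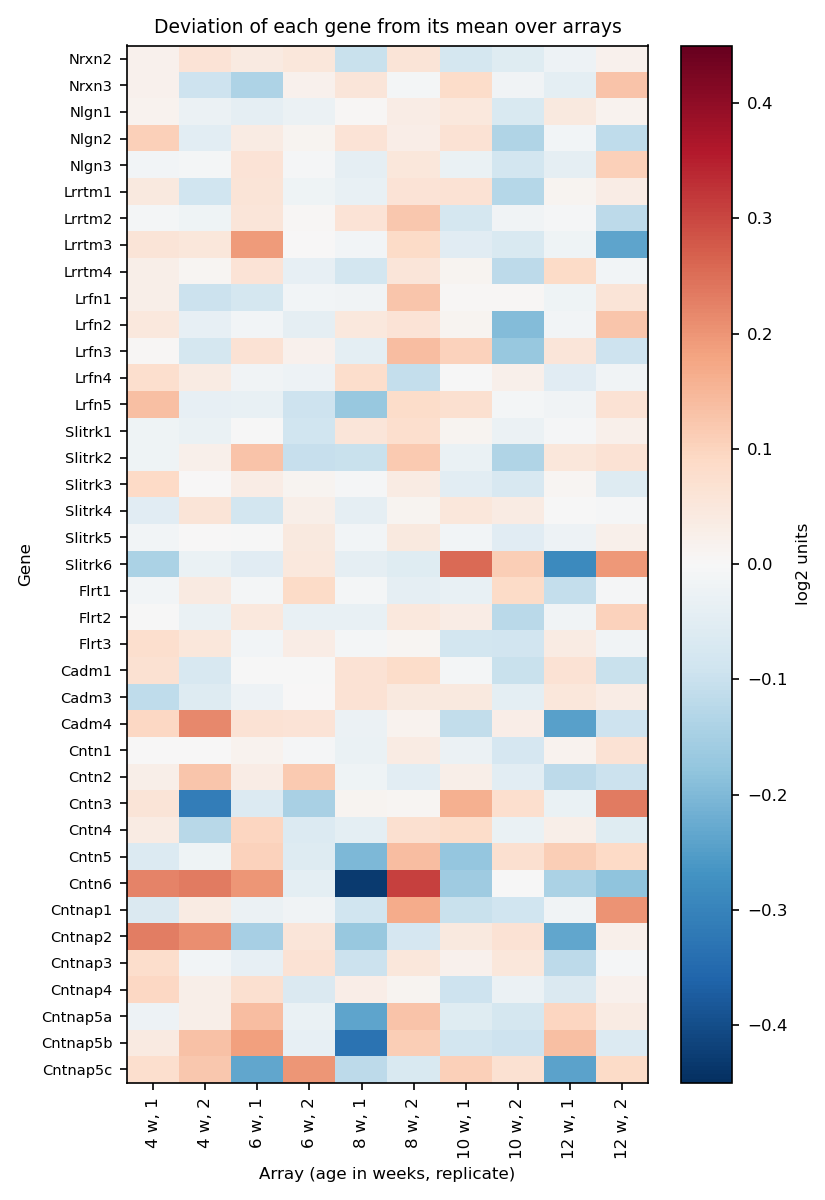
Deviation of each gene from its own mean over the 10 arrays, in log2 units, with arrays in order of age and genes grouped by family. Cntn6 has both the lowest deviation, −0.43 in 8 weeks replicate 1, and the highest, 0.31 in its replicate; Cntnap5b in 8 weeks replicate 1 and Cntn3 in 4 weeks replicate 2 are also dark blue.

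The genes differ widely in length and position. In GRCm38.p6, the RefSeq assembly of mm10, the span of the 39 genes ran from 3.88 kb (Lrfn4) to 2241 kb (Cntnap2), with a median of 93.2 kb against 17.9 kb over all measured genes. The Slitrk genes were short throughout, at 4.25 to 12.5 kb. Cadm4 lies on chromosome 7 from 24482023 to 24504533, Cntn2 on chromosome 1 from 132509425 to 132543251 and Cntnap2 on chromosome 6 from 45060061 to 47301393. Cntn3 (102163304 to 102564614) and Cntn6 (104492662 to 104863406) lie near each other on chromosome 6, with Cntn4 beyond them (105677632 to 106700141), and had changes of 0.27, −0.37 and 0.03.

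Some of these genes sit inside another gene. Lrrtm1, Lrrtm2 and Lrrtm3 lie within the spans of Ctnna2, Ctnna1 and Ctnna3, genes of the alpha-catenins that link cadherins to actin, and Lrrtm3 itself is at 63928497 to 64090255 on chromosome 10. In all 6 of the 39 lie so, the others being Flrt1 in Macrod1, Flrt3 in Macrod2 and Lrfn4 in Pcx. The changes of the catenin hosts were −0.14 ± 0.05 (Ctnna2), −0.10 ± 0.06 (Ctnna1) and 0.12 ± 0.09 (Ctnna3). Macrod1 had 0.25 ± 0.07, Macrod2 0.05 ± 0.06 and Pcx −0.13 ± 0.07. The change of Flrt1, within Macrod1, was negative, but its sign is not resolved (adjusted p = 0.79 in limma). None of the 6 hosts passed the threshold of the trend in limma. Ctnna3 and Lrrtm3, the nested gene with the largest change, had fitted values of opposite sign. The mean level of Ctnna3 was 7.03, close to the dim reference of 7.01, and the sign of its change is not resolved (adjusted p = 0.70 in limma).

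The binding partners of these families were listed as 75 genes, of which 71 were measured. By the trend 1 passed as higher and 2 as lower, 4.23% of the 71 against 0.82% of all genes. Before adjustment 15 had a trend at p under 0.05 in limma (21.1%, against 11.7% of all genes and 13.5% of those that were not dim). Of the 71 genes 2 were dim. The median change was −0.03 against 0.00 over all genes. These lists were drawn up with earlier results of these data known, so their shares are not read as an enrichment. L1cam, an adhesion molecule of growing axons and a partner of contactins, fell from 10.28 ± 0.05 at 4 weeks to 9.84 ± 0.03 at 12 weeks (SD, n = 2). Its arrays were at 10.31 and 10.25 at 4 weeks, 10.08 and 10.15 at 6, 9.96 and 10.03 at 8, 9.99 and 9.87 at 10, and 9.82 and 9.85 at 12 weeks, with no overlap between the ends. The fitted change was −0.43 ± 0.06 (SE, adjusted p = 0.0063 in limma), and −0.39 with an adjusted p of 0.057 without the array of 4 weeks replicate 1; without the 12-week arrays the adjusted p was 0.082. L1cam also passed between 12 and 4 weeks (−0.44, adjusted p = 0.037). Its relatives Chl1 (−0.19 ± 0.07), Nfasc (−0.30 ± 0.07) and Nrcam (0.00 ± 0.06) did not pass.

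Igsf21, a binding partner of neurexin 2 at inhibitory synapses, had the other fall, −0.37 ± 0.07 (SE, adjusted p = 0.034 in limma). The arrays were at 10.05 and 9.85 at 4 weeks, 9.88 and 9.81 at 6, 9.70 and 9.76 at 8, 9.64 and 9.55 at 10, and 9.65 and 9.56 at 12 weeks, and the ends did not overlap. This call was lost in 12 of 22 alternatives, among them the fits without either 4-week array (adjusted p = 0.18 and 0.063), either 6-week array (0.068 for each), 8 weeks replicate 2 (0.056), either 10-week array (0.075 and 0.067) or 12 weeks replicate 2 (0.099), and with median centring (0.051). The other genes of the neurexin and neuroligin list did not pass. Of its 21 genes, 1 of them dim, 16 (76.2%) had negative changes, against 48.8% of all genes and 54.1% of those that were not dim. Before adjustment 3 (14.3%) had a trend at p under 0.05 in limma, against 11.7% of all genes. Igsf21 was lower, while Gpc4 (0.25 ± 0.07) and C1ql2 (0.19 ± 0.06) were higher. Cbln1 and Cbln2, secreted linkers of neurexins, had −0.12 ± 0.09 and −0.01 ± 0.05.

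Ntng1, netrin G1, which binds Lrrc4c across the synapse, was the partner that rose. It is also among the 7 genes listed as markers of mature granule cells. That list did not rise as a whole: 4 changes were positive and 3 negative, with a median of 0.07. Tdo2 of that list passed as lower (−0.44 ± 0.08, adjusted p = 0.032 in limma). Ntng1 went from 9.92 and 9.74 at 4 weeks to 10.49 and 10.37 at 12 weeks, with no overlap. The fitted change was 0.55 ± 0.09 (SE, adjusted p = 0.014 in limma), and dropping the first or the other 4-week array gave an adjusted p of 0.068 or 0.067, and dropping replicate 1 of 12 weeks 0.062. Without both 12-week arrays it was 0.16. Its receptor gene Lrrc4c had 0.01 ± 0.08. The receptor phosphatases, presynaptic binding partners of Slitrk and Lrfn proteins, did not pass, with −0.11 ± 0.06 for Ptprd, −0.28 ± 0.06 for Ptprf and −0.12 ± 0.05 for Ptprs. The adjusted p of Ptprf was 0.066 in limma and fell under the threshold in 3 of 22 alternatives, the lowest being 0.023.

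Of 8 teneurin and Unc5 genes 0 passed by the trend in limma, and 1 (12.5%) had an unadjusted p under 0.05, against 11.7% of all genes. Tenm1 had −0.13 ± 0.08, Tenm2 0.13 ± 0.08 and Unc5c 0.24 ± 0.08. The genes of the latrophilins, the other Flrt partners, were counted in the neurexin and neuroligin list and did not pass. Adgrl1 had −0.04 ± 0.05, Adgrl2 −0.16 ± 0.18 and Adgrl3 0.06 ± 0.06. Of 23 scaffold genes beneath the synaptic membrane 0 passed as well. Of these 5 (21.7%) had an unadjusted p under 0.05, against 11.7% of all genes and 13.5% of those that were not dim. Their median change was −0.02, with a range from −0.26 (Lin7a) to 0.14 (Shank1). Dlg1 had 0.14 ± 0.05, Dlg2 −0.04 ± 0.09, and Dlg4, the gene of PSD-95, −0.02 ± 0.05.

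**Figure D5:**
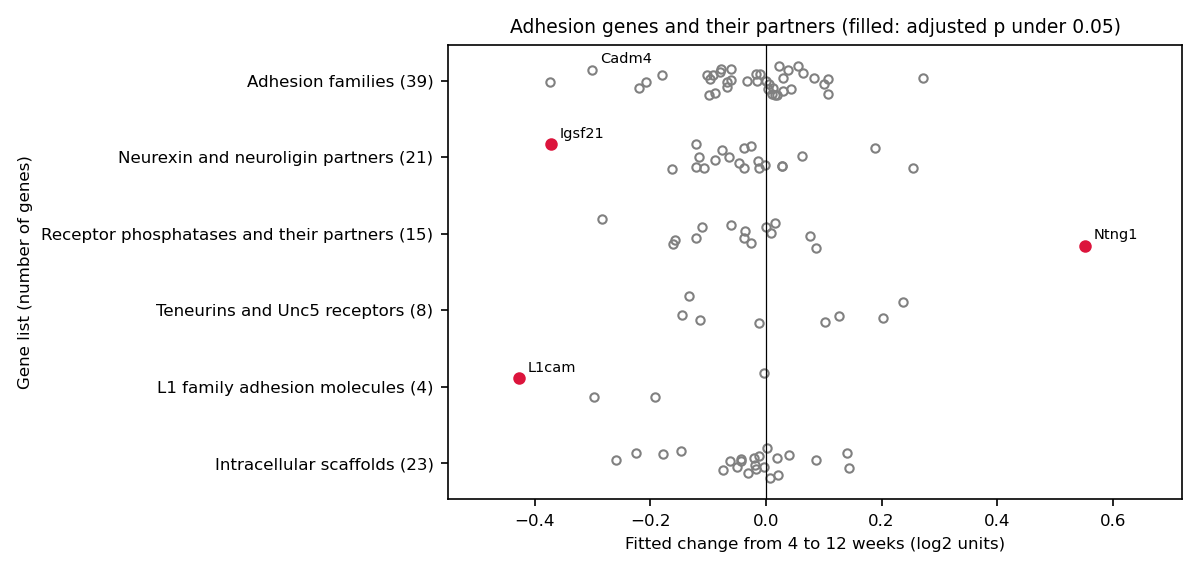
Fitted change from 4 to 12 weeks in log2 units of the 39 adhesion genes and of 5 lists of their partners; each point is a gene, spread vertically for visibility, and filled points passed an adjusted p of 0.05. Igsf21, L1cam and Ntng1 are filled, at −0.37, −0.43 and 0.55; Cadm4 is labelled at −0.30.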

How the data were processed

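Per the labels' protocols, the tissue was cut free with a needle tip and broken up mechanically, with DNase added, and the material was fragmented and biotinylated with a whole-transcript kit. The authors deposited 1 value per probe set and array, taken here as log2 expression from the range of the values; which base the log has, and how the arrays were background-corrected, summarized and normalized, is not given in the sources used here. The build was mm10, per the submitters' processing notes. Of 25254 probe sets, 21496 had 1 gene in the platform annotation and were used, while 1565 had several and 2193 none; of several for a gene, the one with the highest mean was kept. No filter on dim genes was set.

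With R 4.3.3, limma 3.58.1 (empirical Bayes at its defaults) fitted all 19752 genes: age in weeks as a number, given as the change over 8 weeks, and age as a factor for the F-test and 12 versus 4 weeks. Tests were two-sided with Benjamini-Hochberg adjustment over all genes and a threshold of 0.05. The code was tested on simulated data. Errors of changes are SE. With 2 arrays per age of unknown animals, p-values measure the spread between arrays, which may be technical, and the number of arrays limits precision.

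Named genes are those called, the largest rise and fall of each family and the first 2 of each partner list; all members have their change given. Cntn2, further partners and the host genes were chosen after their values were seen. Members, lists and tests were chosen with earlier results of these data known.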

Additional observations from a re-analysis of the deposited data

How the results depend on the processing

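Alternatives for the trend were a replicate block, a filter on the dimmest 30% of genes, median centring, quantile normalization, array weights, trended or robust variances, the mean over probe sets, log2 of age, a linear contrast of age as a factor, leaving out each array, the 12-week arrays or both arrays that stood apart. The trend called 0 of the 39 genes, or 0 to 1 over the fits that leave out 1 array each. It called 1, always Cadm4, with the replicate block, without the dimmest 30% of genes, with trended variance, with array weights and without 8 weeks replicate 1. Between 12 and 4 weeks the count was 1 (Cadm4) with trended variance and 0 otherwise, and in the F-test it was 0 in all 19 alternatives. The cause was not tested. Leaving out 1 array moved the count over all genes from 162 to between 35 and 279 by the trend, from 33 to between 5 and 50 in the F-test, and from 102 to between 13 and 188 between 12 and 4 weeks.

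The replicate block changed no other call: it gave 1 gene by the trend and 0 in both other tests. Deviations of same-numbered arrays correlated between −0.34 and 0.16 over 10 pairs of ages, and 3 were above 0.1. The labels name no shared litter, batch or day, so the numbers were not taken as pairs; a shared batch was not tested otherwise. The sign of the change held in every alternative for 23 of the 39 genes; the other 16 had main changes of at most 0.10. Among all 39, only Cadm4 was called in any alternative of the trend.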

Other observations

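The array of 10 weeks replicate 2 was the lowest of the 10 for 14 of the 39 adhesion genes, with a median deviation of −0.05 log2 units from each gene's own mean, against 0.00 over all genes. Its replicate was the lowest for 2. The share of all genes lowest on 10 weeks replicate 2 was not counted, so the 14 is not read as particular to these families. In the Nlgn family this array lay −0.10 from the 4-week mean, the lowest value of that family. Leaving it out called none of the 39 genes by the trend, and gave Cadm4 an adjusted p of 0.054 in limma.

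On the array of 6 weeks replicate 1, where the mean of 7 choroid plexus markers was 9.26 against 7.51 to 7.80 on the others, the adhesion genes had a median deviation of 0.01. Lrrtm3 was highest there, at 11.23, and Cntnap5c was at 8.38, as on 12 weeks replicate 1, its lowest array.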
